A study of Mus musculus with 38 samples.

Results

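Scgb1c1 encodes a small secreted protein of the secretoglobin family, and it was examined here as 1 gene of the 29564 listed in an RNA-seq study of mouse left ventricle. It was chosen by its measured counts, as the gene with the strongest fall in hearts in a mouse model of heart failure in which the ejection fraction is preserved (HFpEF) against healthy hearts, so that fall is given as a description, without a test. The tests concern the drug groups and the variation of Scgb1c1 between mice of the same group, although 4 of the 5 group comparisons tested set a drug group against libraries on which the gene was chosen. The study asked whether an inhibitor of the deacetylase HDAC6, TYA-018, acts on such hearts as well as empagliflozin, which inhibits the glucose transporter SGLT2.

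The 38 libraries, 1 per mouse, came from wild-type (WT) C57BL6 animals (C57BL/6J in the methods of the study) in 4 groups. The non_failing group (n = 8) was healthy and received vehicle. The HFpEF+Veh group (n = 8) had HFpEF induced by a high-fat diet with L-NAME, a blocker of nitric oxide synthesis, and also received vehicle. The HFpEF+TYA-018 (n = 11) and HFpEF+SGLT2i (n = 11) groups had the same induction and received TYA-018 or empagliflozin. The labels give female mice, while the methods of the study describe males. Mice are named by the numbers of the sample titles.

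Secretoglobins are small, largely helical proteins that mostly form dimers and are secreted by mucosal epithelia. The best known member, uteroglobin (Scgb1a1), is the main secretory product of club cells in the airway, and family members bind small hydrophobic molecules. Scgb1c1 was described in the olfactory mucosa, and it is not a classical gene of the heart.

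In the GRCm38 assembly Scgb1c1 (ENSMUSG00000038801) lies on the plus strand of chromosome 7, from 140845547 to 140846769. The annotation gives 1 protein-coding transcript of 455 bases in 3 exons of 85, 200 and 170 bases. The coding part spans 95 codons without the stop codon, and 140 bases follow it in exon 3, the stop codon included. After the authors' correction for fragment length and bias, its effective length was 317 ± 6.07 bases (SD, n = 38), and 99.0% of the 13764 other genes tested were longer. A pair of genes annotated on the minus strand overlaps it, and neither was analysed here. The library kit keeps strand, but the strand setting of the quantification is not given in the sources used here, so reads of the overlapping genes cannot be told apart from its own with certainty.

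The promoter is shown as the sequence context of the gene whose RNA level differed between the groups. The RefSeq window of 300 bases around its start (GRCm38.p6, chr7:140845315-140845614, plus strand, from 250 bases before the start) is printed with motif matches in capitals.
Scgb1c1: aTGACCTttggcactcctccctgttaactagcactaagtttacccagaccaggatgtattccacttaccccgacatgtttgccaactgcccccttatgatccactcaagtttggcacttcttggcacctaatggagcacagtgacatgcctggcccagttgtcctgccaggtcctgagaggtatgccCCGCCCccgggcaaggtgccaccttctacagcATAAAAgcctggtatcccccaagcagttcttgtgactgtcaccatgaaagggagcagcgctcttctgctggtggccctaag
The capitals mark, on either strand, a nuclear receptor core motif (AGGTCA) from -249 to -244, a GC box (GGGCGG) from -63 to -58 and a TATA-like element (ATAAAA) from -31 to -26, counted from the RefSeq start. The RefSeq start lies downstream of the annotated gene start given above (140845547), so all 3 matches lie nearer to that annotated start. AGGTCA occurs in 16.3% of the 32851 promoter windows of this length, GGGCGG in 35.7% and ATAAAA in 18.5%. The letters of the E-box CACGTG (in 7.15% of windows), of the D-box TTATGNAA (3.39%) and of TATAAA (13.6%) are not in this window. These matches are a description of the letters and were not tested for binding.

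Levels are given as CPM, the counts per 1000000 counts of a library after scaling, and as TPM, the transcripts per 1000000 transcripts, which also allow for transcript length. In non_failing hearts Scgb1c1 reached 6.73 CPM in the lowest library, 11.3 in the median and 16.1 in the highest (mean 11.4 ± 3.01, SD, n = 8). In HFpEF+Veh hearts the corresponding values were 1.89, 2.42 and 3.76 CPM (mean 2.65 ± 0.732, SD, n = 8). All 8 vehicle libraries therefore lay below all 8 non_failing libraries, and the highest vehicle library (V2521) was well under the lowest non_failing library (V2510).

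The drug groups stayed in the low range. HFpEF+TYA-018 hearts held 2.26 CPM at the lowest, 3.29 at the median and 5.95 at the highest (mean 3.58 ± 1.09, SD, n = 11). HFpEF+SGLT2i hearts held 2.06, 2.56 and 3.89 CPM (mean 2.69 ± 0.563, SD, n = 11). No library of any HFpEF group reached the lowest non_failing value, and the library nearest to it was V2552 of the TYA-018 group. Among the 13765 genes tested, 0.305% lay lower without overlap in HFpEF+Veh than in non_failing, 0.654% in HFpEF+TYA-018 and 0.494% in HFpEF+SGLT2i.

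**Figure D1:**
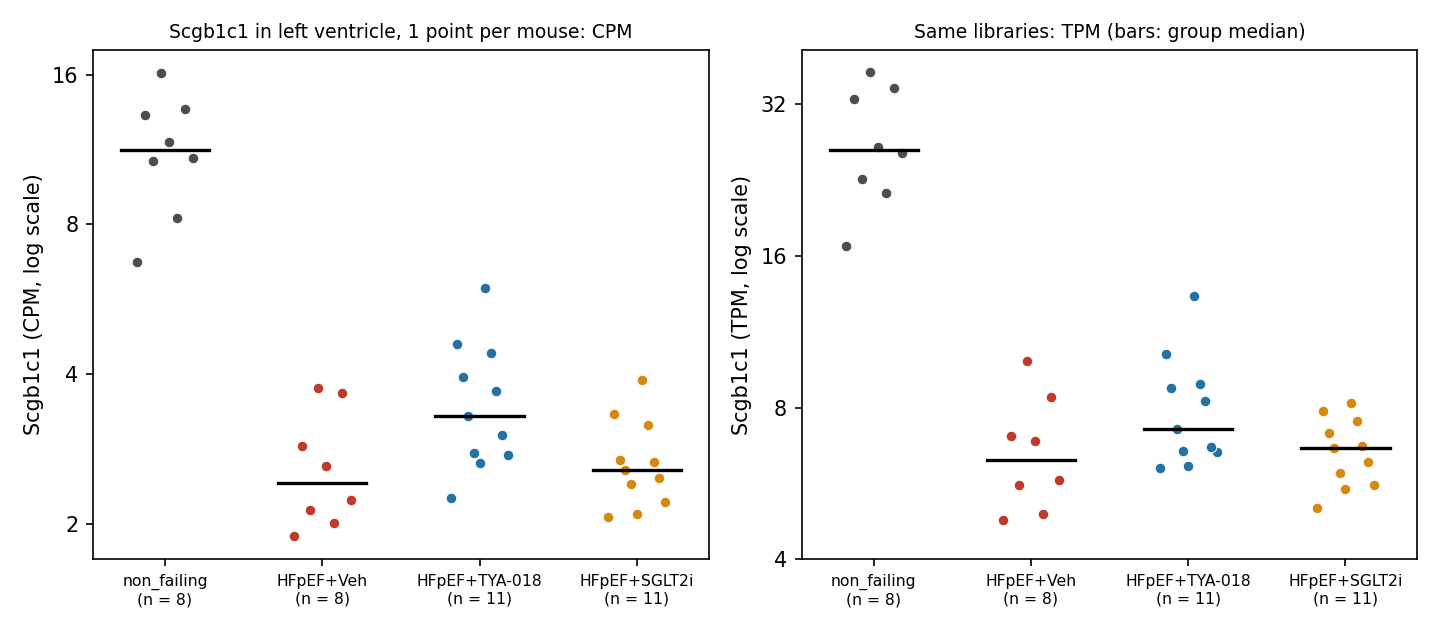
Scgb1c1 in each library as CPM (left) and TPM (right) on log axes, with 1 point per mouse and a bar at the group median. The 8 non_failing points lie between 6.73 and 16.1 CPM, above all points of the HFpEF groups, whose highest value is 5.95 CPM.

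On the TPM scale healthy and HFpEF hearts were as far apart, and the empagliflozin mean lay just below that of vehicle rather than just above it. Means ± SD were 27.1 ± 7.03 TPM for the 8 non_failing mice and 6.66 ± 1.78 for the 8 mice given vehicle. They were 8.06 ± 2.20 TPM under TYA-018 and 6.58 ± 1.02 under empagliflozin, with 11 mice each. Ranked against the mean TPM of all genes tested, Scgb1c1 stood at percentile 88.7 in non_failing hearts. It stood at percentile 62.4 in HFpEF+Veh, 69.1 in HFpEF+TYA-018 and 63.4 in HFpEF+SGLT2i. Per length it was thus more abundant than most transcripts tested in the healthy ventricle, and nearer their middle in the HFpEF groups.

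These values rest on 194 to 665 counts per non_failing library, 54 to 121 in HFpEF+Veh, 68 to 155 in HFpEF+TYA-018 and 47 to 158 in HFpEF+SGLT2i. Total depth was 21.5 to 59.3 M counts (M stands for 1000000). Scgb1c1 was detected in all 38 libraries. Counting error alone would give 3.81% of the variance of log2 CPM within the non_failing group, 18.2% in HFpEF+Veh, 12.3% in HFpEF+TYA-018 and 32.3% in HFpEF+SGLT2i. Counting error was thus the smaller part of the spread between mice in each group. The coefficient of variation of CPM was 26.3% in non_failing, 27.7% in HFpEF+Veh, 30.4% in HFpEF+TYA-018 and 20.97% in HFpEF+SGLT2i, so the relative spread was of like size at the high and the low level.

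Other secretoglobins were almost absent. Of 67 secretoglobin genes and pseudogenes listed, 63 had no count in any library, and Scgb1c1 was the only member above the filter on low counts. Scgb3a1, an airway secretoglobin, had 200 counts over all libraries. Uteroglobin had 48 and Scgb3a2, of the distal airway, had 6, against 5874 for Scgb1c1. Uteroglobin reached at most 0.949 TPM in a library, against 37.01 TPM for Scgb1c1.

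Since Scgb1c1 is known from mucosa, markers of such tissue were read beside it. Of 14 airway and alveolar markers 13 had a count, but their summed level was 0.965 to 6.48 CPM in non_failing hearts and 1.34 to 35.4 in HFpEF+Veh. Sums were 0.831 to 2.71 CPM in HFpEF+TYA-018 and 0.852 to 3.88 in HFpEF+SGLT2i. The medians were 2.39 CPM in non_failing, 1.62 with vehicle, 1.45 with TYA-018 and 1.92 with empagliflozin, and the groups overlapped. The highest sum came from V2523 of the vehicle group, with 2.21 CPM in the next vehicle library. The part of these lists in the level of Scgb1c1 was not tested. The highest single values of the list were 16.99 CPM for surfactant protein D (Sftpd, with counts in 4 libraries) and 15.1 CPM for Cyp2f2 (24 libraries). Surfactant protein C (Sftpc), which defines alveolar type II cells, reached at most 0.256 CPM in a library, and the claudin Cldn18 of the same epithelium was at 0. Of 8 olfactory markers 5 had a count, with a sum of 0.164 to 0.521 CPM in non_failing and 0.119 to 0.381 in HFpEF+Veh, 0.0951 to 0.372 in HFpEF+TYA-018 and 0.116 to 0.535 in HFpEF+SGLT2i. The odorant binding protein Obp1a and the olfactory enzymes Cyp2g1 and Ugt2a1 were at 0, while olfactory marker protein (Omp) reached at most 0.211 CPM. The highest gene of this list was Cnga2, with counts in all 38 libraries and at most 0.451 CPM.

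The size of the fall that chose the gene was estimated in a fit of all 4 groups with edgeR. Scgb1c1 was 4.32-fold lower in HFpEF+Veh than in non_failing, a log2 fold change of -2.11 (SE 0.19, 95% interval -2.49 to -1.73, lower in 8 of 8 mice). By this contrast 3.15% of the genes tested were called at an adjusted p under 0.05, 243 higher and 190 lower. Scgb1c1 stood first of the 190 by fold and first of all 13765 by p, which is how it was chosen. Among the 11122 genes with an average log2 CPM of at least 1 it had rank 3 by fold, behind Upk3b, a mesothelial uroplakin (-2.49, adjusted p 0.156), and Scaper, a cyclin A-associated protein (-2.23, adjusted p 0.457), which were not called.

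The called genes next to it by fold were Lrrc4b, a synaptic adhesion protein, at -2.05 (SE 0.30) and Abat, the GABA transaminase, at -1.65 (SE 0.19). By p they were Gcat, an enzyme of threonine breakdown, at -1.15 (SE 0.11), Tnnt1, the troponin T of slow skeletal fibres, at -0.81 (SE 0.09), Abat again, and Pde1c, a calmodulin-dependent phosphodiesterase, at -1.35 (SE 0.18). All values in this paragraph are log2 fold changes of HFpEF+Veh against non_failing. Gcat and Tnnt1 thus fell by less than Scgb1c1, with smaller errors.

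Whether a drug changes the low level was then tested against vehicle. With TYA-018, Scgb1c1 was 1.35-fold higher than with vehicle, a log2 fold change of 0.43 (SE 0.17, 95% interval 0.08 to 0.78), and 10 of 11 mice lay above the vehicle mean. This did not pass the adjustment over all genes (edgeR, p 0.0174, adjusted p 0.175), in a comparison that called 1.93% of genes. Taken as a single value, the difference in mean log2 CPM was 0.42 (two-sided exact permutation test, p 0.0381, adjusted p 0.0477 over 5 comparisons). This adjusted p is lowered by the comparisons of the drug groups with non_failing, which are among the 5. Those use non_failing libraries on which the gene was chosen, so the adjusted p is not read as a call. The groups overlapped, with 4 of 11 TYA-018 libraries above the highest vehicle library. The vehicle libraries are also those on which the gene was selected for a low value.

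With empagliflozin the difference from vehicle was small against its error. The log2 fold change was 0.02 (SE 0.17, 95% interval -0.33 to 0.37, edgeR adjusted p 0.981), and 5 of 11 mice lay above the vehicle mean. The interval spans a fold of 0.796 to 1.29. The comparison called 0.85% of genes. The exact permutation test of the single value gave a two-sided p of 0.799.

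The drugs were also set directly against each other. Scgb1c1 was 1.33-fold higher with TYA-018 than with empagliflozin, a log2 fold change of 0.41 (SE 0.16, 95% interval 0.09 to 0.73), and 10 of 11 TYA-018 libraries lay above the empagliflozin mean. It did not pass the adjustment over all genes (edgeR, p 0.0133, adjusted p 0.246), where 0% of genes were called, 1821 had an unadjusted p under 0.05 and DESeq2 called 187. The permutation test of the single value gave a two-sided p of 0.0198 (adjusted p 0.0330 over 5 comparisons). This adjusted p too is lowered by the comparisons with non_failing and is not read as a call. The highest TYA-018 library carried part of the difference, since it was 0.32 without V2552.

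The length of transcripts moved with this difference. A length contrast was computed for each library as the mean log2 CPM of the shortest quartile of genes (up to 1327 bases) minus that of the longest quartile (from 2855 bases). It averaged 0.03 ± 0.13 (mean ± SD) over the 11 mice given TYA-018 and -0.14 ± 0.07 over the 11 given empagliflozin. It averaged -0.10 ± 0.14 over the 8 vehicle mice and -0.07 ± 0.11 over the 8 non_failing mice. The median with TYA-018 was 0.0012, and without V2555, the highest library at 0.39, the mean was -0.0070. The contrast differed by 0.17 between the drugs (permutation test, adjusted p 0.00072 over 6 comparisons), and by 0.14 without V2555. It differed by 0.13 between TYA-018 and vehicle (exact permutation test, adjusted p 0.113), by 0.10 between TYA-018 and non_failing (exact permutation test, adjusted p 0.162) and by -0.04 between vehicle and non_failing (exact permutation test, adjusted p 0.570). Without V2555, TYA-018 differed by 0.096 from vehicle and by 0.060 from non_failing.

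With the length contrast as a covariate in limma, the difference between TYA-018 and vehicle was 0.18 (adjusted p 0.731), against 0.42 (adjusted p 0.196) in limma without it. Between the drugs the difference was 0.07 (adjusted p 0.995) with the contrast and 0.38 (adjusted p 0.273) without. The fall in HFpEF+Veh was -2.02 with the contrast and -2.08 without. This alternative was added after the data were seen.

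Neither drug group reached the healthy level. Scgb1c1 was 3.20-fold lower with TYA-018 than in non_failing hearts, a log2 fold change of -1.68 (SE 0.17, 95% interval -2.02 to -1.34, edgeR adjusted p 6.80e-09, lower in 11 of 11). It was 4.26-fold lower with empagliflozin, a log2 fold change of -2.09 (SE 0.17, 95% interval -2.43 to -1.75, edgeR adjusted p 4.37e-11, lower in 11 of 11). The comparisons called 7.39% and 6.45% of genes. The exact permutation test gave 1.32e-05 for each, the smallest p that these numbers of mice allow. Both comparisons share the non_failing libraries with the one that chose the gene.

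**Figure D2:**
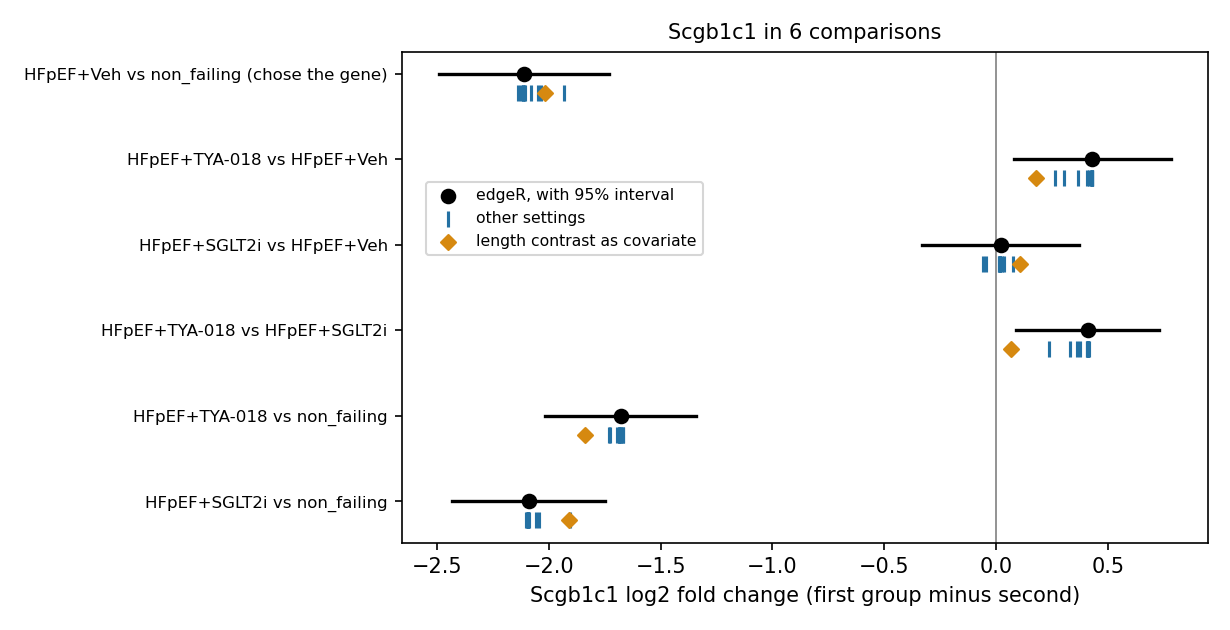
Log2 fold change of Scgb1c1 in 6 comparisons from edgeR (points, with 95% intervals), with the values of other settings as ticks and of the fit with the length contrast as diamonds. The 3 comparisons with non_failing lie between -2.11 and -1.68, and the interval of empagliflozin against vehicle spans 0.

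Markers of heart cell types were read beside the fall, since bulk RNA cannot tell fewer cells of a type from less RNA per cell. Over all genes tested, 1.77% were called higher and 1.38% lower in HFpEF+Veh than in non_failing. In this comparison 2185 of the 13765 genes had an unadjusted p under 0.05, and DESeq2 called 599. Such counts for the lists below stand against these values. Of 12 cardiomyocyte genes, 4 were called lower and none higher, namely the myosin light chains Myl3 (-0.41, adjusted p 0.00256) and Myl2 (-0.37, adjusted p 0.0121) and the troponins Tnnt2 (-0.43, adjusted p 0.00459) and Tnni3 (-0.34, adjusted p 0.0129). The median of the list was -0.23, against 0.01 over all genes tested. Their summed level was 52216 to 68818 CPM in non_failing and 46642 to 55379 in HFpEF+Veh hearts. It was 49750 to 63636 CPM in HFpEF+TYA-018 and 39066 to 59956 in HFpEF+SGLT2i. These changes were smaller than that of Scgb1c1. The part of cell types in its fall was not tested.

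Among the other cell types, 3 of 10 fibroblast genes were called higher (the matrix proteins Lum at 0.86 and Postn at 1.03, and the receptor Pdgfra at 0.33). Of 8 pericyte and smooth muscle genes 2 were called lower (the channel subunit Abcc9 at -0.46 and the G protein regulator Rgs5 at -0.36), while the smooth muscle actin Acta2 gave 0.71 (adjusted p 0.0770, above the non_failing mean in 8 of 8) and the list had a median of 0.05. This count was 0 without V2503, V2508 or V2530, 1 without each of 6 other libraries and 3 without each of 4, V2510 among them. Of 6 atrial genes 2 were called higher (Dkk3, a secreted Wnt modulator, at 1.44 and the growth factor Bmp10 at 2.38, the latter at no more than 0.162 TPM in any library of either group). The atrial myosin light chain Myl7 gave -2.46 (adjusted p 0.0840, below in 8 of 8) and the natriuretic peptide Nppa -0.28 (adjusted p 0.773), and the median of the atrial list was 0.21. The atrial count was 1 without V2503, V2504, V2508 or V2523 and in 5 of 11 other settings. The summed level of the fibroblast list was 1194 to 1764 CPM in non_failing and 1129 to 2406 in HFpEF+Veh. None of 9 endothelial and 6 conduction genes was called by edgeR or DESeq2, with 0 of each at an unadjusted p under 0.05. None of 9 macrophage genes was called by either tool, with 1 at an unadjusted p under 0.05. The macrophage count was 1 without V2532 and above 0 in 1 of 11 other settings. 

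Markers of mesothelium and epicardium gave values of both signs in this comparison. Of 7 genes 0 were called by edgeR, 6 had an unadjusted p under 0.05 and DESeq2 called 1. Over all 13765 genes, 2185 had an unadjusted p under 0.05 and DESeq2 called 599. The log2 fold changes were -2.49 for the uroplakin Upk3b (below the non_failing mean in 8 of 8 mice), -1.77 for the uroplakin Upk1b (7 of 8) and -2.76 for the membrane protein Lrrn4 (7 of 8). Values for the epithelial keratins Krt8, Krt18 and Krt19 were 3.16, 2.21 and 2.47, but they lay below the non_failing mean in 7, 6 and 5 of 8 vehicle mice, with 1 library each at 27.7, 28.02 and 45.5 TPM against vehicle medians of 0.127, 0.379 and 0.305. The transcription factor Wt1 gave 0.08. The median of the list was 0.08 with all libraries and -1.84 without V2523, with 0 called. Against non_failing, edgeR called 0 of 7 with TYA-018 and 4 lower with empagliflozin (3.39% and 2.99% of all genes were called lower). The counts were 2 and 5 lower without V2523 (3.85% and 3.39% of all genes). They were 0 and 1 without V2502 (3.47% and 2.45% of all genes). Summed levels were 7.86 to 74.8 CPM in non_failing (median 15.4), 10.1 to 203 in HFpEF+Veh (15.1), 6.497 to 43.6 in HFpEF+TYA-018 (10.3) and 6.78 to 23.4 in HFpEF+SGLT2i (9.41). The highest vehicle sum came from V2523, with 17.3 CPM in the next. The within-group r of these genes with Scgb1c1 lay between -0.39 and -0.01, and their part in its fall was not tested.

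The targets of the fatty acid receptor PPARA were called in the direction opposite to Scgb1c1. Of 14, 8 were called higher in HFpEF+Veh and none lower, with a median of 0.45, against 1.77% of all genes called higher. The thioesterase Acot2 rose by 0.81 (adjusted p 0.000486) and the carnitine transferase Cpt1b by 0.44 (adjusted p 0.000827), both as log2 fold changes in edgeR. Of 18 circadian clock genes 0 were called by edgeR or DESeq2, and 2 had an unadjusted p under 0.05. That p was under 0.05 for 2185 of all 13765 genes. Of 8 glucocorticoid responsive genes 0 were called by either tool, and 0 had an unadjusted p under 0.05.

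Hepatocyte transcripts, which mark liver RNA, were lower in most HFpEF libraries than in non_failing hearts, as Scgb1c1 was. A list of 14 hepatocyte genes summed to 37.5 to 529 CPM in non_failing hearts (median 91.6, highest in V2504 and 282 in the next). The medians were 8.81 CPM in HFpEF+Veh, 4.41 in HFpEF+TYA-018 and 5.72 in HFpEF+SGLT2i, and no library of the drug groups exceeded 20.05 CPM. A pair of vehicle libraries lay within or above the non_failing range, V2523 with 2392 CPM and V2532 with 52.0. Of the 14 genes, edgeR called 13 lower with TYA-018 and 12 with empagliflozin than in non_failing, and none higher, against 3.39% and 2.99% of all genes called lower. In HFpEF+Veh against non_failing it called 0 with all libraries (1 at an unadjusted p under 0.05, 2 called by DESeq2), and without V2523 it called 11, all lower (median log2 fold change -3.55), where 2.46% of all genes were called lower. All 14 were called lower with each drug than with vehicle (1.1% of all genes with TYA-018 and 0.719% with empagliflozin), but without V2523 only 3 with TYA-018 and 0 with empagliflozin (0.536% and 0% of all genes).

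The level of Scgb1c1 was read in the libraries with the most and the least hepatocyte RNA. It was 2.61 CPM in V2523, inside the range of the other vehicle libraries and below all non_failing libraries. In the non_failing group it was 13.3 CPM in V2504, which had the highest hepatocyte sum, and 6.73 in V2510 and 13.6 in V2508, which had the lowest sums (37.5 and 37.9 CPM). The median within-group r of the 14 genes with Scgb1c1 was 0.05, with a range of -0.06 to 0.13.

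Markers of other tissues were read as well, and some were high in single libraries. In V2532 of the vehicle group the 8 fast skeletal muscle genes summed to 136 CPM, against 2.39 in the next. Of this list Tnnt3, the fast troponin T, was called higher in HFpEF+Veh (2.51, adjusted p 0.0275), and it was not called without V2532. Erythroid genes summed to 2758 to 21136 CPM in HFpEF+Veh and 1852 to 5400 in non_failing. With all libraries edgeR called 0 of 5 (5 at an unadjusted p under 0.05, 2 called by DESeq2), and without V2532 it called all 5 higher, where 2.48% of all genes were called higher. Of 9 adipocyte genes 1 was tested, the lipid droplet gene Cidea, which was called higher (0.69, adjusted p 4.98e-07). No other gene of this list had more than 118 counts over all libraries, against 39341 for Cidea. The adipocyte list thus rests on 1 gene, and whether adipocyte RNA differed was not tested. Scgb1c1 was 2.01 CPM in V2532, inside the range of the other vehicle libraries. Without V2523 and V2532 its log2 fold change was -2.05 against non_failing.

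The genes around Scgb1c1 were then read. The annotation lists 17 genes within 100000 bases, of which 7 were tested. None of the 7 was called by edgeR between HFpEF+Veh and non_failing with all libraries, at adjusted p values of 0.5003 or more. Urah, an enzyme of urate breakdown and one of the nearest tested genes, had a median of 0.962 TPM in non_failing and 0.336 in HFpEF+Veh, where 1 library reached 3.60. Its log2 fold change was -0.52 (adjusted p 0.651, lower in 7 of 8) with all libraries, but without V2523 it was called lower (-1.47, SE 0.43, adjusted p 0.0390), and so it was without V2523 and V2532 (-1.92, adjusted p 0.00646). Against non_failing it was -1.42 (adjusted p 0.0514) with TYA-018 and -1.29 (adjusted p 0.0869) with empagliflozin, lower in 11 of 11 mice of each group, and both were called without V2523 (adjusted p 0.0128 and 0.0251). V2523 held the highest hepatocyte sum, and the 14 hepatocyte genes moved alike. In HFpEF+Veh 0 of them were called with all libraries and 11 were called lower without V2523. The part of liver RNA in the values of Urah was not tested. On the other side of Scgb1c1 the nearest tested gene was Bet1l, a Golgi SNARE (0.16, adjusted p 0.531). Sirt3, the mitochondrial deacetylase, gave -0.13 (adjusted p 0.5003), and Psmd13, of the proteasome, gave 0.08 (adjusted p 0.692). Cox8b, the muscle isoform of a cytochrome c oxidase subunit, gave -0.04 (adjusted p 0.905). The liver enzyme Cyp2e1, also nearby, was called lower than non_failing with TYA-018 (-4.79, adjusted p 0.00711) and with empagliflozin (-4.54, adjusted p 0.00868), in 11 of 11 mice each. It was also called lower with each drug than with vehicle, where 1 library reached 29.9 TPM, but not without V2523. Between HFpEF+Veh and non_failing it gave 1.26 (adjusted p 0.575) with all libraries, -2.53 (adjusted p 0.113) without V2523 and -3.70 (called lower, adjusted p 0.0220) without V2523 and V2532. Nlrp6, an inflammasome sensor, was called lower with empagliflozin than with vehicle (-3.33, adjusted p 0.0433) from levels of at most 2.16 TPM, and without V2523 its value was -0.32 (adjusted p 0.886). Against non_failing without V2523, Nlrp6 was called lower with empagliflozin (-2.32, adjusted p 0.0123), and in HFpEF+Veh it went from 1.01 (adjusted p 0.587) to -2.01 (adjusted p 0.0887).

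**Figure D3:**
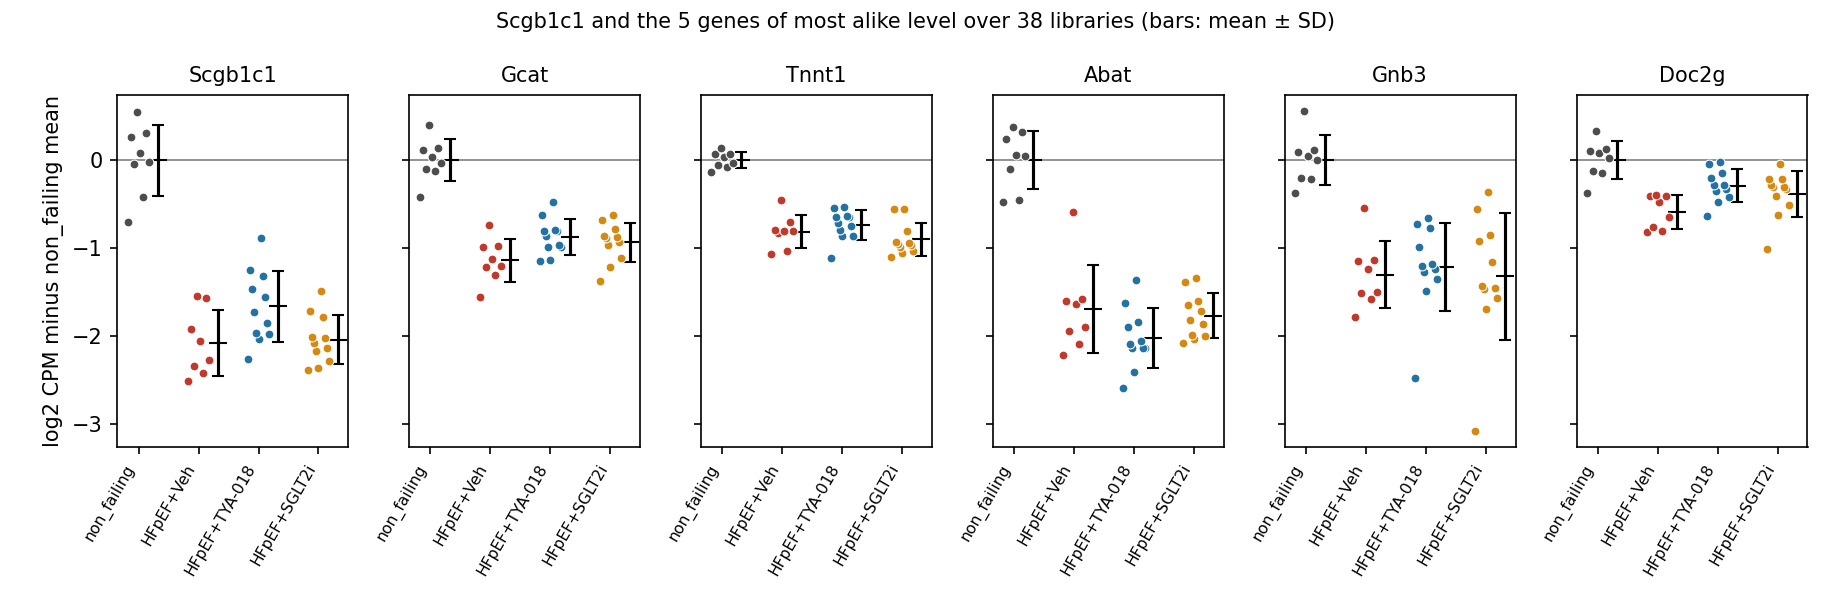
Log2 CPM minus the non_failing mean for Scgb1c1 and the 5 genes whose log2 CPM had the highest r with it over all 38 libraries, with 1 point per mouse and bars for mean ± SD. The HFpEF groups of Scgb1c1 average -2.08, -1.67 and -2.04, those of Tnnt1 -0.81, -0.74 and -0.90.

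Over all 38 libraries the genes with the most alike level were Gcat (r 0.86), Tnnt1 (0.82), Abat (0.81), Gnb3, a G protein beta subunit (0.80), and Doc2g, a member of the double C2 protein family (0.78). These r values mostly repeat the difference between healthy and HFpEF hearts on which Scgb1c1 was chosen, so they carry no test. All 5 were lower in 8 of 8 HFpEF+Veh mice than the non_failing mean. Gcat held 3.30, 4.32 and 5.68 TPM (lowest, median, highest) in non_failing and 1.59, 2.09 and 2.89 in HFpEF+Veh. Doc2g, the most abundant per length, held 93.8, 116 and 134 TPM in non_failing and 69.3, 81.8 and 95.1 in HFpEF+Veh, so its groups just overlapped.

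The 5 genes differed once the group means were removed. Doc2g kept a within-group r of 0.68 with Scgb1c1 and Gnb3 had 0.50. Gcat had 0.32, Abat 0.21 and Tnnt1 -0.03. Of these only Doc2g passed the test over all genes (limma adjusted p 0.0160), while Gnb3 had an adjusted p of 0.0729. With the drugs, Doc2g was 0.30 (SE 0.10, adjusted p 0.0968) above vehicle for TYA-018 and 0.21 (SE 0.10, adjusted p 0.445) for empagliflozin.

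Genes that vary with Scgb1c1 from mouse to mouse were then sought within groups, by subtracting each group's mean of log2 CPM. Of 13764 other genes, 154 were called with limma at an adjusted p under 0.05. Positive r was found for 120 of them (0.872% of genes) and negative r for 34 (0.247%). The r values of all genes ran from -0.66 to 0.76 around a median of -0.01. An unadjusted p under 0.05 was found for 1970 genes, those called included. The count was not stable. It was 2 without V2501 and 2 without V2543, 338 without V2527, 6 with library size alone as the scaling, 1 on log2(TPM + 1) and 0 on ranks within groups.

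The closest gene was Mrpl49, a protein of the large mitochondrial ribosomal subunit (within-group r 0.76, rho 0.77, limma adjusted p 0.00161). Its r was 0.92 in non_failing, 0.58 in HFpEF+Veh, 0.83 in HFpEF+TYA-018 and 0.66 in HFpEF+SGLT2i, and 0.71 without the 2 libraries in which Scgb1c1 deviated most (V2510 and V2552). Its level was 10.4 ± 1.79 TPM in non_failing and 11.3 ± 1.58 in HFpEF+Veh (SD, n = 8 each), so it followed Scgb1c1 between mice but not between the groups. The next were 1110008P14Rik (r 0.75) and Myadml2, a myeloid differentiation marker homologue (0.70). Zcrb1, an RNA-binding protein of the minor spliceosome, gave 0.69. S100a1, the calcium sensor of cardiac muscle, gave 0.69, Deb1 gave 0.69, Mcts2, a retrocopy of a translation factor, 0.68, and Fance, of the Fanconi anaemia complex, 0.68. Reads of Mcts2 can be shared with its parent gene.

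S100a1 is the cardiac gene of this group. It held 657, 749 and 850 TPM (lowest, median, highest) in non_failing and 573, 659 and 713 in HFpEF+Veh. The difference between these groups was -0.27 (SE 0.09, edgeR adjusted p 0.0891, lower in 7 of 8), and in HFpEF+SGLT2i it was -0.28 against non_failing (SE 0.08, adjusted p 0.0313, lower in 11 of 11). In HFpEF+TYA-018 it was -0.07 against non_failing (SE 0.08, edgeR adjusted p 0.685, lower in 6 of 11). Its within-group r with Scgb1c1 was positive in every group, from 0.39 in HFpEF+Veh to 0.82 in HFpEF+SGLT2i.

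At the other end were Ctnnd1, the p120 catenin of cell junctions (r -0.66), Zbtb39, a zinc finger protein (-0.66), and Hip1, an adaptor of endocytosis (-0.65). Slc3a2, the heavy chain of amino acid transporters, gave -0.65 and the kinase Prkx -0.64. The Golgi protein Golim4 gave -0.64, the sphingomyelin synthase Sgms1 -0.64 and the basement membrane protein Nid2 -0.62. Ctnnd1 had r values of -0.77 in non_failing, -0.51 with vehicle, -0.58 with TYA-018 and -0.82 with empagliflozin. In no group alone was a gene called. Between HFpEF+Veh and non_failing the log2 fold changes of the 16 genes named at both ends lay between -0.27 (S100a1) and 0.36 (Hip1), and edgeR called none of them (lowest adjusted p 0.0891). In other comparisons it called 1110008P14Rik higher with TYA-018 than with vehicle (0.32, adjusted p 0.0321) and than in non_failing (0.32, adjusted p 0.0130). It called Myadml2 higher with TYA-018 than in non_failing (0.38, adjusted p 0.00944). With empagliflozin against non_failing it called Fance higher (0.28, adjusted p 0.0341) and S100a1 lower.

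**Figure D4:**
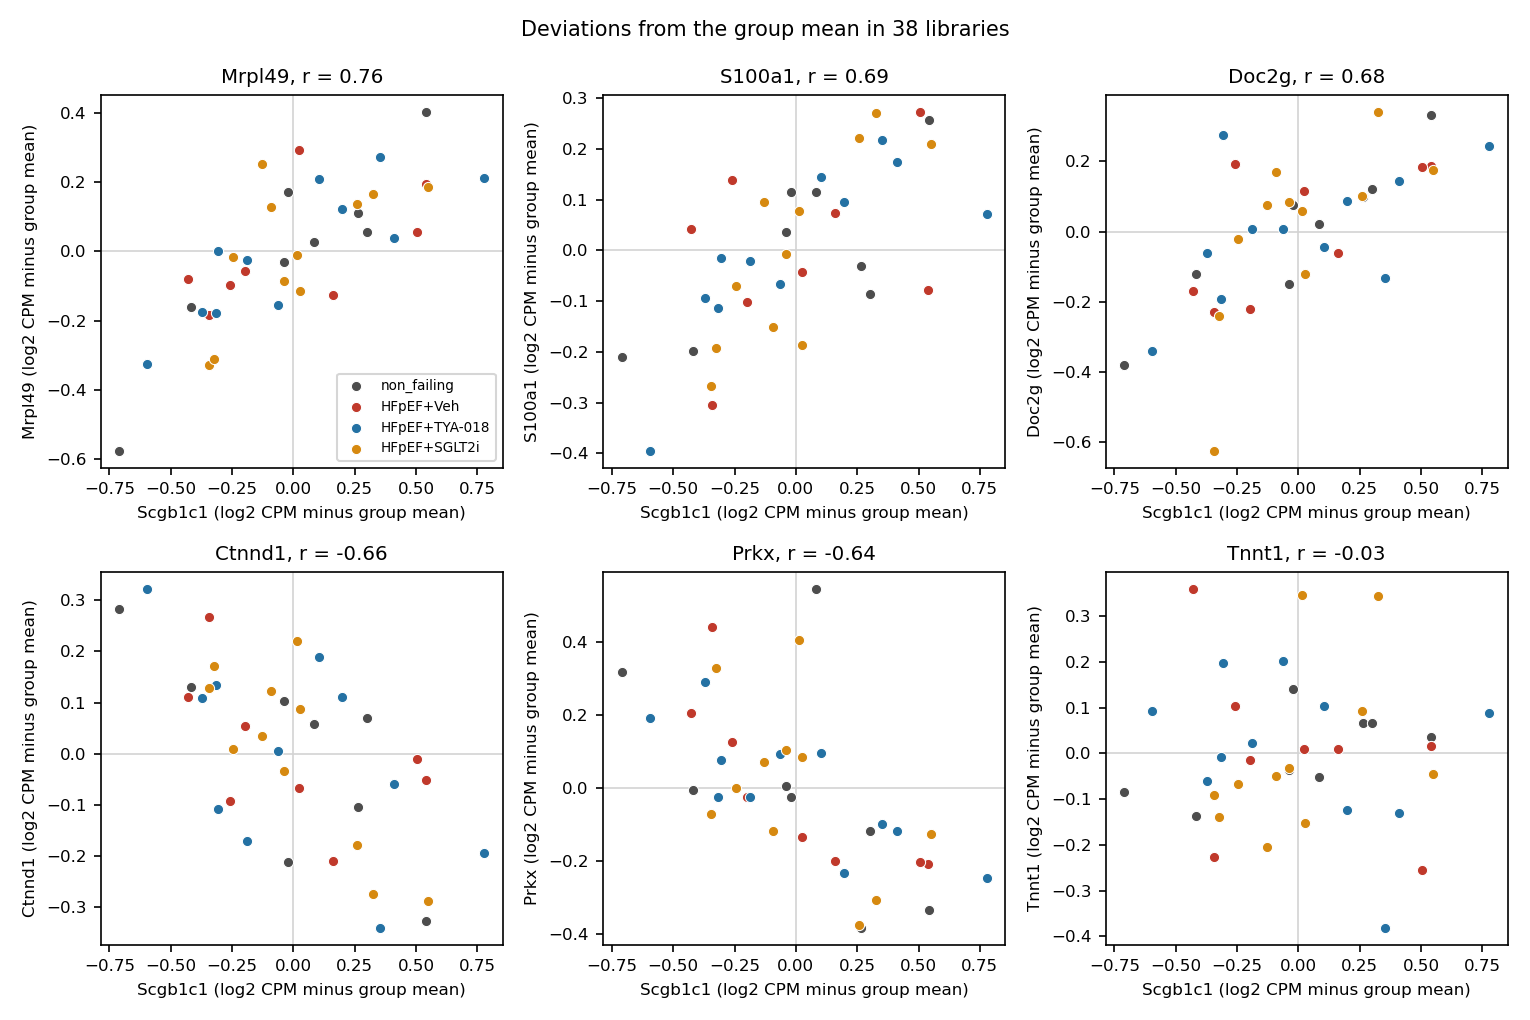
Deviation of log2 CPM from the group mean for Scgb1c1 (x axis) and 6 genes (y axes), with 1 point per library colored by group. Mrpl49, S100a1 and Doc2g rise with Scgb1c1 (r 0.76, 0.69 and 0.68), Ctnnd1 and Prkx fall (-0.66 and -0.64), and Tnnt1 shows no relation (-0.03).

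Among the cell type lists, only the macrophage receptor gene Cd163 was called, with an r of -0.56 (limma adjusted p 0.0387). Of 12 cardiomyocyte genes 10 had a positive r, with a median of 0.15 and the highest for Myl2 (0.59, adjusted p 0.0688). The median over 9 endothelial genes was -0.22, over 18 clock genes -0.14 and over 14 PPARA targets -0.02. Of the neighbours on chromosome 7 only Cox8b was called (r 0.57, adjusted p 0.0384), and it is the shortest of them.

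Transcript length moved with these relations as well. The median effective length was 553 bases for the 120 genes with positive r, 3078 for the 34 with negative r and 2044 for all tested. Of the 120, 113 were shorter than that overall median, and of the 34, 24 were longer. By deciles of length, the median r went from 0.24 in the shortest decile (median 600 bases) to -0.13 in the longest (median 5443 bases), and 95 of the 120 positive genes were in the shortest decile. Scgb1c1 deviated with the length contrast of its library (r 0.55, permutation p 0.00091, and rho 0.64, permutation p 0.00011, over 38 libraries). This r was 0.82 in non_failing, 0.28 in HFpEF+Veh, 0.56 in HFpEF+TYA-018 and 0.64 in HFpEF+SGLT2i, and 0.52 without the 2 libraries in which Scgb1c1 deviated most.

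With the length contrast as a covariate no gene was called in limma, 1158 had an unadjusted p under 0.05, and the smallest adjusted p was 0.308. The r of Mrpl49 was then 0.63 and that of Doc2g 0.61, while that of Hip1 was -0.42. The contrast shared 30.7% of the within-group variance of Scgb1c1. Depth (r -0.20) and the share of mitochondrial transcripts (r 0.07) were less close to Scgb1c1 within groups.

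**Figure D5:**
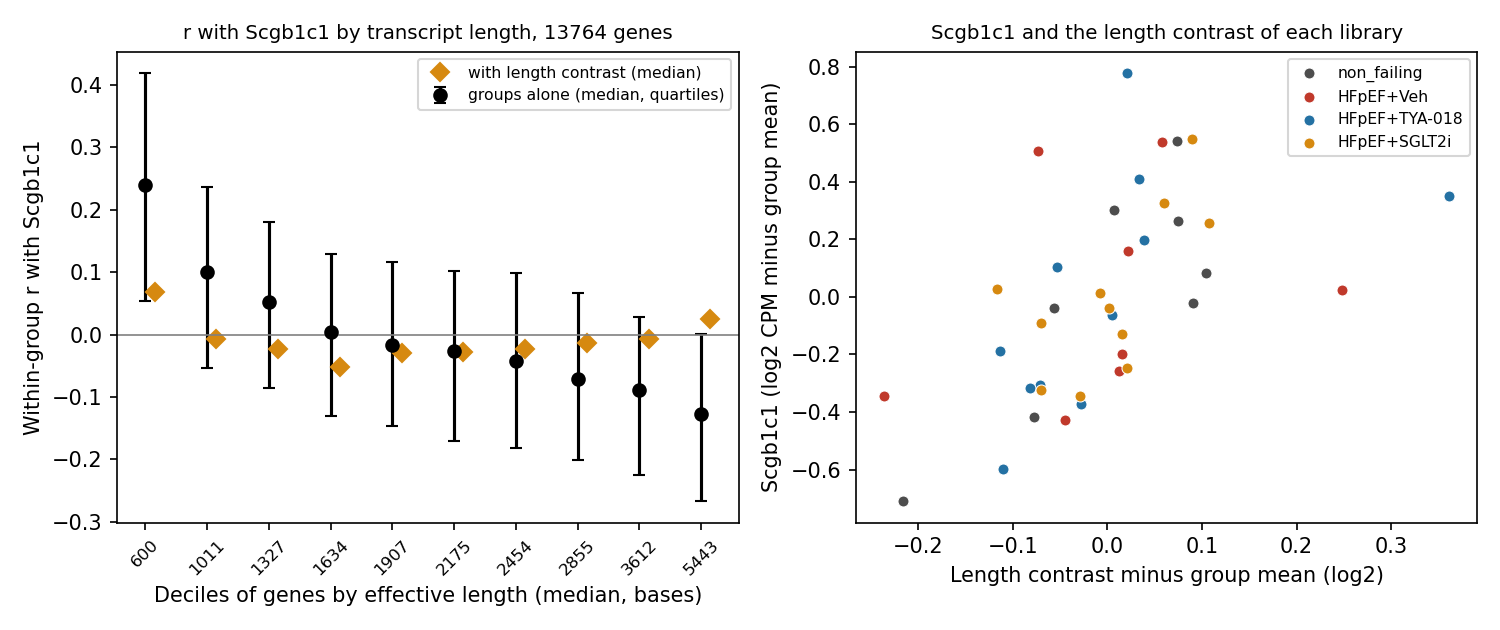
Left, within-group r with Scgb1c1 by deciles of effective length for 13764 genes, as median with quartiles, and as median with the length contrast as covariate. Right, deviation of Scgb1c1 against deviation of the length contrast in the 38 libraries (r 0.55), where the median r on the left goes from 0.24 to -0.13 with length.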

How the data were processed

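RNA was measured by polyadenylated, stranded RNA-seq in 38 left ventricles, 1 library per mouse, so p-values measure the spread between mice. The authors trimmed reads with fastp, quantified GENCODE transcripts of GRCm38 with Salmon 1.6.0 (submitters' processing notes, which list a human build, and the study's methods), correcting for sequence, GC and position, and summed them to genes. The deposited expected counts are estimated reads per gene. The deposited TPM values were scaled by the authors over all transcripts of a library. Effective transcript lengths in bases, also deposited, were read per gene and library. Unmapped columns numbered 0. None of 166 pairs of libraries of a group were duplicates (lowest chi-square per degree of freedom 17.4).

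Expected counts were rounded. Genes were filtered with filterByExpr (13765 kept, with 7693 of 29564 listed without any count), scaled with TMM and tested in R 4.3.3 with edgeR 4.0.16 (quasi-likelihood, two-sided), fitting the 4 groups together. P-values were adjusted by Benjamini-Hochberg over all genes tested. The relation to Scgb1c1 was tested with limma 3.58.1 on log2 CPM (prior count 2) with group as covariate. Single values were tested by exact permutation, or by 100000 permutations. DESeq2 1.42.0, other scalings, filters and units, covariates, and each library left out in turn were alternatives. The scripts were tested on simulated data. Mouse numbers differ between groups, so nothing was paired.

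Named genes are Scgb1c1, secretoglobins with a count, tested genes within 100000 bases, the 8 highest and 8 lowest within-group r and 5 highest r over all libraries (average log2 CPM of at least 1), the largest falls, and the called and most abundant genes of lists. Other list genes were named after their values were seen. The gene, its lists and the tests were chosen with earlier results of these data known. Some genes of the lists are not reported by name, although they count in the totals. Symbols were matched to GENCODE M21 on GRCm38. The promoter is from RefSeq.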

Additional observations from a re-analysis of the deposited data

Results flagged for a closer look

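In mean log2 CPM, Scgb1c1 was 0.377 higher with TYA-018 than with empagliflozin (permutation test, p 0.0198, adjusted p 0.0330 over 5 comparisons). This adjusted p is lowered by the comparisons with non_failing, on whose libraries the gene was chosen, so it is not read as a call. The test over all genes did not call the difference (edgeR adjusted p 0.246). The difference was 0.07 (limma adjusted p 0.995) with the length contrast as covariate and 0.24 (limma adjusted p 0.494) on log2(TPM + 1). In 44 checks of groups of 8 for a library far from the others, over Scgb1c1 and the genes named for their relation to it, 1 was found. Abat stood at 2.57 log2 CPM in HFpEF+Veh V2523, the library with the highest hepatocyte sum, against 1.57 in the next. Chance alone flags about 1 in 20 such groups.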

How the results depend on the processing

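The log2 fold change of Scgb1c1 in HFpEF+Veh against non_failing ran from -2.20 to -2.02 when each library was left out, and from -2.14 (length offset) to -1.93 (limma on log2(TPM + 1)) in other settings. TYA-018 against vehicle ran from 0.33 (without V2552) to 0.52 over the libraries left out, and was 0.26 in limma on log2(TPM + 1) and 0.18 with the length contrast, which was added after the data were seen. Its adjusted p over all genes ran from 0.102 to 0.731 over all settings. TYA-018 against empagliflozin ran from 0.32 to 0.48 over the libraries left out, and was 0.24 on log2(TPM + 1) and 0.07 with the length contrast, with an adjusted p of 0.145 to 0.995 over all settings. Against non_failing the values ran from -1.78 to -1.59 for TYA-018 and from -2.17 to -2.00 for empagliflozin over the libraries left out, and with the length contrast they were -1.84 and -1.91. Empagliflozin against vehicle, near 0, changed sign with library size alone (-0.0597) and without V2523 and V2532 (-0.0454), and ran from -0.0466 to 0.111 over the libraries left out, negative in 7 of 38.

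Of all genes tested, TYA-018 against vehicle called 266, but 1096 with library size alone, 618 without the filter, 402 with DESeq2, 90 without V2523 and V2532, 65 and 42 in limma on log2 CPM and on log2(TPM + 1), 58 with only these groups and 4 with the length contrast. Empagliflozin against vehicle called 117, but 457 without the filter, 20 without V2523 and V2532, 3 with only these groups and 1, 0 and 0 in the limma fits in the order above. Without V2523 alone it called 2 higher and 0 lower. HFpEF+Veh against non_failing called 433, but 916 without V2523 and V2532. TYA-018 against empagliflozin called 0, but 187 with DESeq2 and 5 with the length offset. Against non_failing the drugs called 1017 and 888, but 597 and 527 in limma on log2(TPM + 1).

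The number of genes that follow Scgb1c1 within groups, 154, was unstable. It was 1 on log2(TPM + 1), 6 with library size alone, 0 on ranks within groups, 463 with depth and mitochondrial share as covariates, 870 with the first principal component as covariate, 10 without V2510 and V2552, 61 without V2523 and V2532, and 0 with the length contrast. Within non_failing, HFpEF+Veh, HFpEF+TYA-018 or HFpEF+SGLT2i alone it was 0. Leaving out each library gave 2 (V2501, and also V2543) to 338 (V2527), outside 1.5 times in 21 of 38. The cause was not tested. Of the 16 genes named at the ends of r, chosen for their size in the same libraries and all called there, none was called on ranks, with the length contrast or in a group alone, 1 on log2(TPM + 1), 5 with library size alone and 6 without V2510 and V2552. Within-group r changed sign for Gcat in HFpEF+Veh alone (-0.38), for Abat in HFpEF+TYA-018 alone (-0.25), and for Tnnt1 on ranks (0.13), in non_failing alone (0.65) and in HFpEF+SGLT2i alone (0.45), and its r over the libraries left out ran from -0.0927 to 0.0815. Depth limits Scgb1c1 most in HFpEF hearts, where a library gave as few as 47 counts. No paired analysis was possible because mouse numbers are not shared between groups.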
